A study of Mus musculus with 6 samples.

Results

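The 10 genes described here encode amino acid transporters of the plasma membrane or, for Slc3a2, the heavy chain that 2 of them share: Slc7a1, Slc7a3, Slc7a11, Slc3a2, Slc7a5, Slc43a1, Slc38a2, Slc1a4, Slc1a5 and Slc6a9. They were taken by symbol from a table of 49671 mouse genes, and each of the 10 was found and passed the filter on low counts. The RNA came from LSK cells of BALB/c mice, a marrow fraction of blood stem cells and early progenitors defined by Sca-1 and Kit and by the lack of lineage markers. One group carried a retroviral hairpin that knocks down Cxxc5 (shCxxc5), and the other a non-targeting retroviral hairpin (shCtrl). Each group had 3 libraries, and both used the replicate numbers 2, 3 and 4. Both groups were sorted for GFP, the mark of infection, and each library came from cells pooled over several animals. The mice's age and the number of different hairpins are not stated in the labels. Library totals ran from 15002414 to 27754019 counts, and values are CPM (counts scaled to a common library size, here after TMM scaling) unless another unit is named.

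Cells take up amino acids through carriers that differ in substrate, in coupling to sodium and in whether they exchange one amino acid for another. Several of these genes are known targets of ATF4, the transcription factor that cells make more of when amino acids run short or the endoplasmic reticulum is under stress. ATF4 pairs with C/EBP proteins on a short DNA element, the C/EBP-ATF response element, whose common core is TGATGNAA. LAT1 (Slc7a5) and xCT (Slc7a11) reach the cell surface only with the heavy chain 4F2hc (Slc3a2), so these 3 genes make 2 transporters.

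Promoter sequences are shown for the 2 members with a match to that element core beside a start. Whether the element has a part in the values below was not tested. RefSeq's table (GRCm38.p6, a C57BL/6J genome and so not the BALB/c sequence of these cells) held 10 promoters of 7 members (not Slc7a3, Slc7a5 or Slc1a5), each with 250 bases before and 50 bases after a transcription start. The core TGATGNAA, searched on both strands, was present in 2 of the 10, those of Slc7a11 and Slc1a4, against 3.97% of all 32851 promoters in the table. Slc6a9 and Slc7a1 had more than 1 promoter each, and several members are known ATF4 targets, so this share is descriptive. In the Slc7a11 promoter it occurred 2 times in opposite orientations, at positions -66 to -59 and -47 to -40 from the start. In the Slc1a4 promoter it occurred 1 time on the opposite strand, across the start itself, from -4 to 4. The longer form TGATGCAAT, which contains the core, was found in 0 of the 10 and in 0.192% of all promoters. Matching letters are in capitals. The Slc7a11 window is chr3:50443564-50443863 on the minus strand, and the Slc1a4 window is chr11:20332664-20332963 on the minus strand.
Slc7a11: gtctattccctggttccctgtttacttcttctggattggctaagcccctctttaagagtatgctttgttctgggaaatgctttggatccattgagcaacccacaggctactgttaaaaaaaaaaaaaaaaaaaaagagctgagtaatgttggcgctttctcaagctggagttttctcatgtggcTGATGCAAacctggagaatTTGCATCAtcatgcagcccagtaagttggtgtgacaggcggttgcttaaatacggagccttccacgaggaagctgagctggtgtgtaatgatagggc
Slc1a4: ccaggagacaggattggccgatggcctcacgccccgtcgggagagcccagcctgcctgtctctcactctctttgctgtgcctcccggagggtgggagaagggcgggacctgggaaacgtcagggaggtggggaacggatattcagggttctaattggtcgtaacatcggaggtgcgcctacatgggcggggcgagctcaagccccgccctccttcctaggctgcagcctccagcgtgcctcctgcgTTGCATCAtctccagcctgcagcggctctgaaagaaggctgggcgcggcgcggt
These letters are a description of 300 bases, not a measured binding site. Sequence outside the windows, including the rest of each gene, was not searched for the core. Cxxc5 itself encodes a zinc finger protein of the CXXC type, a domain that binds unmethylated CpG, and the promoters of the members ranged widely in CpG, from 4 in Slc7a11 to 41 in Slc38a2, against a median of 7 over all promoters.

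The libraries were checked before the transporters were compared. Cxxc5 had 6.74, 17.4 and 17.9 CPM in shCxxc5 replicates 2, 3 and 4, against 82.2, 59.9 and 57.9 CPM in shCtrl, and no libraries overlapped (exact two-sided permutation test, p = 0.1, the smallest that 3 against 3 allows). In each group, replicate 2 differed most from the rest. Ly6a, the gene of Sca-1, on which the cells were sorted, was at 33.1 CPM in shCxxc5 replicate 2 and 46.4 CPM in shCtrl replicate 2, against 703 to 804 CPM elsewhere, whereas Kit lay between 82.4 and 110.4 CPM. With replicate 2 in the fit the biological coefficient of variation between libraries was 0.312, and in replicates 3 and 4 it was 0.0294. Results are therefore given for each pair of equal number, for all 6 libraries and for replicates 3 and 4, where n = 2 per group. What a replicate number marks is not stated in the labels. Every p-value below therefore reflects variation among these libraries alone, and that variation may be technical.

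In replicates 3 and 4, 9 of the 10 transporter mRNAs fell in shCxxc5 cells and 0 rose (edgeR's quasi-likelihood test, Benjamini-Hochberg adjusted p under 0.05 over 14193 genes). Over all genes tested, 9% were called lower (1278 genes) and 11% higher (1555 genes) in that comparison, and with library totals in place of TMM 1606 were lower and 1120 higher. The falls were graded from large to slight. Those of Slc7a3, Slc7a11, Slc6a9 and Slc1a4 exceeded 1 log2 unit, Slc7a5 and Slc3a2 fell by about the same amount as each other, and Slc7a1, Slc1a5 and Slc38a2 fell by less than 0.5. Slc43a1 was not called. The median log2 fold change was -0.74 for the members and 0.00 for all genes. The members were chosen with earlier results of these data known, so these shares describe them and are not an independent test.

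**Figure D1:**
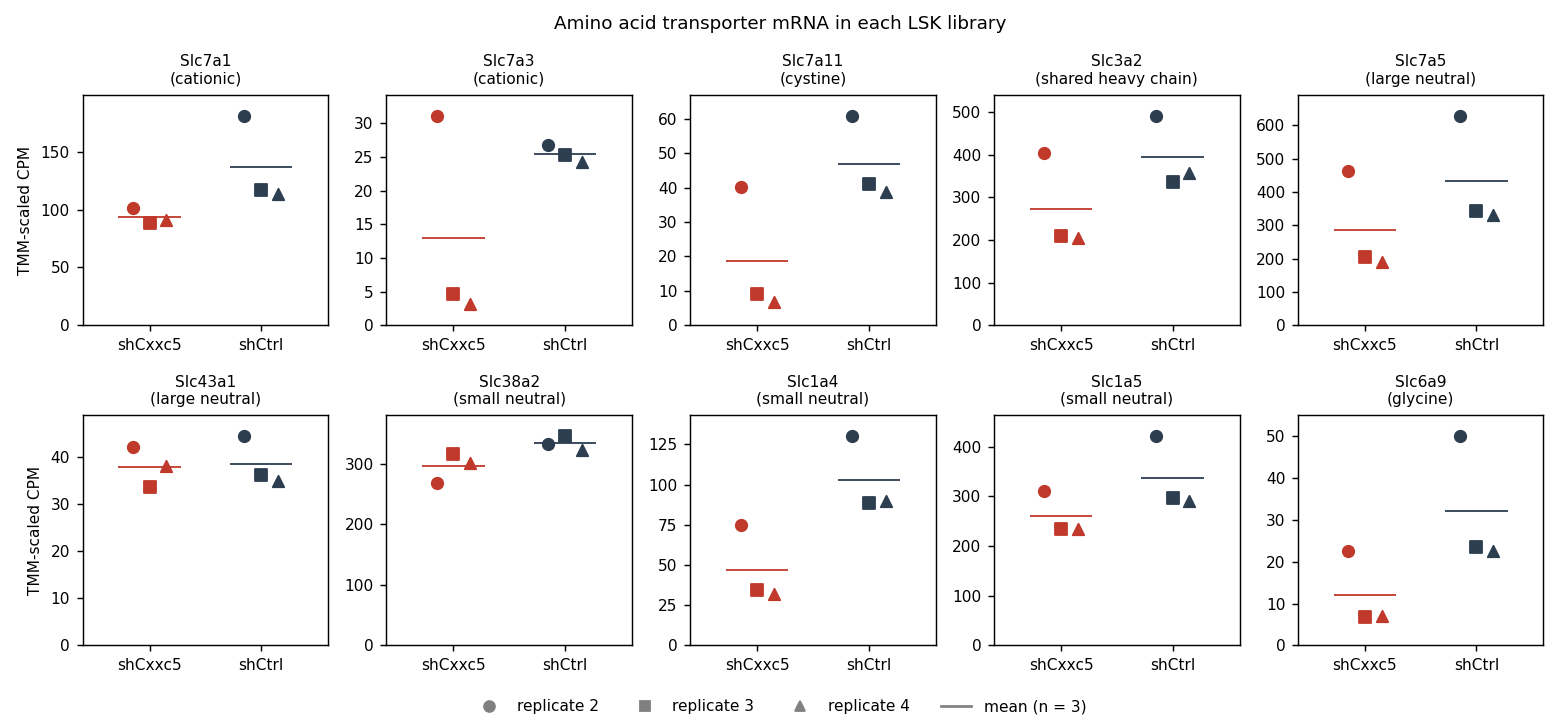
TMM-scaled CPM (vertical axis, from 0) of each transporter in the 3 shCxxc5 and 3 shCtrl libraries, with symbols for replicate numbers and a line for the group mean. In replicates 3 and 4, squares and triangles of shCxxc5 lie below those of shCtrl in 9 panels, and Slc43a1 shows no such gap; replicate 2 is the highest library of its group for most genes.

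All gene positions are in GRCm38. The cationic amino acid transporters carry arginine, lysine and ornithine. Slc7a3 (chrX:101079210-101086020, minus strand), which encodes CAT3, had 31.1, 4.59 and 3.21 CPM in shCxxc5 replicates 2, 3 and 4, against 26.8, 25.2 and 24.3 CPM in shCtrl. The shCtrl libraries were nearly level, while shCxxc5 replicate 2 was the highest of all 6 and the other 2 were the lowest. Its log2 ratios within pairs were 0.22, -2.44 and -2.88. The log2 fold change in replicates 3 and 4 was -2.63 (SE 0.13, adjusted p = 5.66e-15), the third lowest of 14193 genes, which left 18.5% and 13.6% of the shCtrl level in pairs 3 and 4.

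Slc7a1 (chr5:148327410-148399904, minus strand), which encodes CAT1, the widely expressed arginine carrier and in mice also the cell surface receptor of ecotropic murine leukaemia viruses, was lower in shCxxc5 in every pair. It had 101, 88.5 and 91.1 CPM in shCxxc5, against 181, 117 and 113 CPM in shCtrl, so that the groups did not overlap. The shCtrl replicate 2 library was far above the rest. Its log2 ratios were -0.84, -0.40 and -0.31, and in replicates 3 and 4 it fell by 0.35 (SE 0.05, adjusted p = 1.71e-06). Per kb of exon, the level of Slc7a3 relative to Slc7a1 was 0.935, 0.158 and 0.107 in shCxxc5 replicates 2, 3 and 4 and 0.451, 0.659 and 0.654 in shCtrl.

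Cystine, the oxidised dimer of cysteine, enters through xCT in exchange for glutamate and feeds glutathione synthesis. Slc7a11 (chr3:49892526-50443614, minus strand) had 40.1, 9.14 and 6.79 CPM in shCxxc5 replicates 2, 3 and 4, against 60.8, 41.1 and 38.6 CPM in shCtrl. Each shCxxc5 library was below its own pair, and shCxxc5 replicate 2 lay within the shCtrl range. The log2 ratios were -0.60, -2.16 and -2.49, and in replicates 3 and 4 the fold change was -2.29 on the log2 scale (SE 0.10, adjusted p = 6.71e-16). Its promoter is the one shown above with an inverted pair of TGATGNAA matches.

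Slc3a2 (chr19:8706882-8723369, minus strand), the heavy chain that xCT and LAT1 share, was lower in shCxxc5 in every pair as well. It had 404, 209.5 and 204 CPM in shCxxc5, against 491, 335 and 357 CPM in shCtrl. Replicate 2 was highest in each group, and shCxxc5 replicate 2 lay within the shCtrl range. The log2 ratios were -0.28, -0.68 and -0.80. Slc3a2 fell by 0.73 in replicates 3 and 4 (SE 0.04, adjusted p = 1.40e-14). Per kb of exon, Slc7a11 stood at 0.0251, 0.0111 and 0.00842 of Slc3a2 in shCxxc5 and at 0.0314, 0.0310 and 0.0274 in shCtrl.

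LAT1 and LAT3 carry large neutral amino acids such as leucine and phenylalanine. Slc7a5 (chr8:121881150-121907694, minus strand), which encodes the light chain of LAT1, had 462, 206 and 191 CPM in shCxxc5, against 629, 343 and 331 CPM in shCtrl. Replicate 2 was again highest in each group, and shCxxc5 replicate 2 lay within the shCtrl range. Its log2 ratios were -0.44, -0.73 and -0.79. It fell by 0.75 in replicates 3 and 4 (SE 0.04, adjusted p = 1.40e-14), and per kb of exon Slc7a5 stood at 1.09, 0.938 and 0.891 of Slc3a2 in shCxxc5 and at 1.22, 0.974 and 0.884 in shCtrl.

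Slc43a1 (chr2:84838850-84863594, plus strand) encodes LAT3, a facilitated carrier that needs no heavy chain and is also known from red cell precursors. It had 42.1, 33.6 and 38.0 CPM in shCxxc5, against 44.4, 36.1 and 34.8 CPM in shCtrl, and the groups overlapped throughout. The log2 ratios were -0.08, -0.10 and 0.13. Its log2 fold change in replicates 3 and 4 was 0.01 (SE 0.07, adjusted p = 0.960).

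The carriers of small neutral amino acids include a pair of paralogous exchangers and a sodium-coupled carrier. Slc1a4 (chr11:20302180-20332713, minus strand), which encodes ASCT1, an exchanger of alanine, serine and cysteine, had 74.9, 34.6 and 32.2 CPM in shCxxc5, against 130.3, 88.7 and 89.9 CPM in shCtrl. All shCxxc5 libraries were below all shCtrl libraries. Its log2 ratios were -0.80, -1.36 and -1.48, and it fell by 1.41 in replicates 3 and 4 (SE 0.06, adjusted p = 1.45e-16). Slc1a4 carries the TGATGNAA match that spans its start.

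Its paralogue Slc1a5 (chr7:16781340-16798274, plus strand) encodes ASCT2, a main route of glutamine uptake in dividing cells. It had 311, 234 and 234 CPM in shCxxc5, against 422, 296 and 290.5 CPM in shCtrl. Only shCxxc5 replicate 2 reached into the shCtrl range. The log2 ratios of -0.44, -0.34 and -0.31 were alike in the 3 pairs, and Slc1a5 fell by 0.32 in replicates 3 and 4 (SE 0.04, adjusted p = 1.42e-07).

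Slc38a2 (chr15:96687392-96699730, minus strand) encodes SNAT2, the sodium-coupled system A carrier that many cells raise when amino acids are scarce. It had 269, 316 and 302 CPM in shCxxc5, against 333, 346 and 322 CPM in shCtrl. The groups did not overlap, but the gap between the nearest libraries was small. Its log2 ratios were -0.31, -0.13 and -0.09, and in replicates 3 and 4 it fell by 0.11 (SE 0.04, adjusted p = 0.0438). That call was the least certain of the 9. DESeq2 gave an adjusted p of 0.155 for Slc38a2, and edgeR gave 0.0590 without robust fitting, 0.0763 without shCxxc5 replicate 3, 0.357 without shCxxc5 replicate 4 and 0.431 without shCtrl replicate 3, where the log2 fold change was -0.06.

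Glycine uptake by GlyT1, the product of Slc6a9, is known in red cell precursors, where glycine is used for haem. Slc6a9 (chr4:117834506-117875198, plus strand) had 22.6, 6.78 and 6.98 CPM in shCxxc5, against 50.0, 23.4 and 22.6 CPM in shCtrl. Replicate 2 was the highest library in each group, and shCxxc5 replicate 2 lay just under the lowest shCtrl library. The log2 ratios were -1.14, -1.77 and -1.68, and Slc6a9 was the only member lower by over 1 log2 unit in all 3 pairs. It fell by 1.74 in replicates 3 and 4 (SE 0.11, adjusted p = 1.39e-12). None of the 3 Slc6a9 promoters in the table holds the TGATGNAA core. Exons of Slc6a9 share 1555 bases with genes on the other strand. The library kit was stranded, but the labels do not give the strand setting of the counting. Of those genes, B4galt2 lay between 3.20 and 5.25 CPM in all libraries (log2 fold change 0.06 in replicates 3 and 4, SE 0.18, adjusted p = 0.868), Ccdc24 was at 0 in all and Gm17114 reached 0.0347 CPM.

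**Figure D2:**
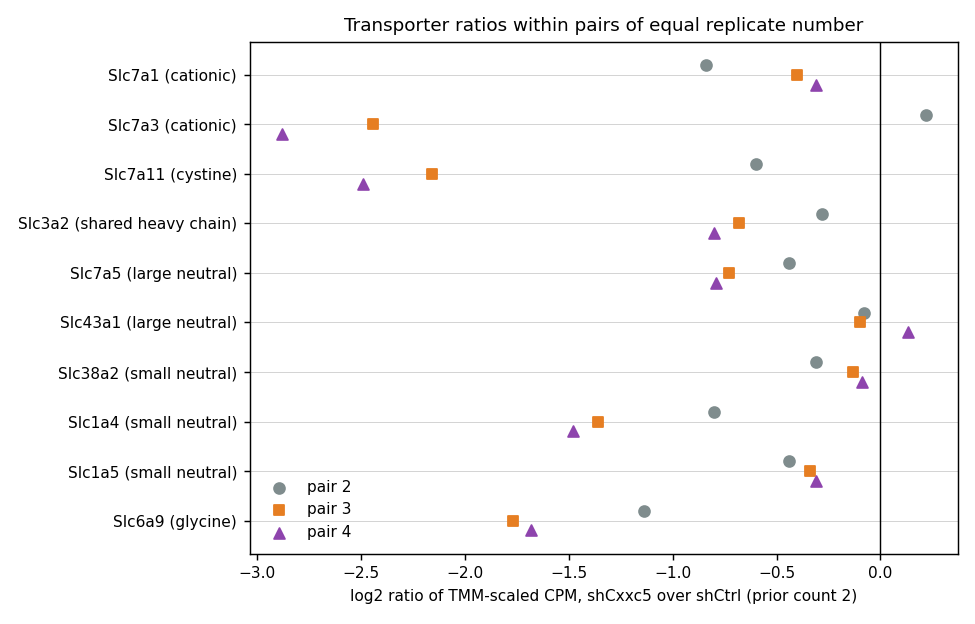
Log2 ratio of shCxxc5 over shCtrl (horizontal axis, TMM-scaled CPM with a prior count of 2) for each transporter within pairs 2, 3 and 4. Pairs 3 and 4 lie side by side for each gene, from -2.88 for Slc7a3 to 0.13 for Slc43a1 in pair 4, and pair 2 lies to the right of them for Slc7a3, Slc7a11, Slc3a2, Slc7a5, Slc1a4 and Slc6a9.

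Over all 6 libraries, 0 of the 10 transporters passed edgeR's test without a block, and 0% of all genes did in either direction. The knocked-down gene Cxxc5 did not pass it either (log2 fold change -2.25, SE 0.40, adjusted p = 0.940). At an unadjusted p under 0.05, Slc1a4 (log2 fold change -1.12, SE 0.37) and Slc7a1 (-0.55, SE 0.20) were lower, which is 2 of 10 against 2.15% of all genes, at adjusted p = 0.940 for both, and 0 were higher, against 1.78%. That count of 2 became 7 without shCxxc5 replicate 2, 0 without shCxxc5 replicate 3 or 4 and 1 without shCtrl replicate 2, where the Slc7a1 value was -0.29. Over all genes, in either direction, 842 of 14839 had such a p without shCxxc5 replicate 2 and 960 of 14815 without shCtrl replicate 2. Without shCxxc5 replicate 3 or 4 it was 238 of 15188 or 242 of 15285, against 575 of 14637 with all 6. Dropping 1 replicate 2 library keeps the other group's, so group and replicate number are then mixed. Slc7a5 was at -1.13 without shCxxc5 replicate 2 and at -0.23 without shCtrl replicate 2. By limma-voom and by DESeq2, each on the group alone, 4 members had an unadjusted p under 0.05 and 0 were called. Over all genes, 583 of 14637 and 628 of 14637 had such a p, in either direction. With the replicate number as a block, edgeR again called 0 members, with 8 lower at an unadjusted p under 0.05 (7.09% of all genes) and 0 higher (5.18%). DESeq2 with the same block called 5 members lower, against 0.874% of all genes, and without it 0, against 0.0956%. With the block Slc6a9 fell by 1.52 (adjusted p = 3.43e-09), Slc1a4 fell by 1.21 (2.26e-07), Slc7a5 fell by 0.65 (0.000171), Slc3a2 fell by 0.58 (0.00833) and Slc7a1 fell by 0.51 (0.0490) on the log2 scale. The ratio was below 0 in all 3 pairs for 8 members, every one except Slc7a3 and Slc43a1, against 22.4% of all genes, and above 0 in all 3 for 0 members, against 19%. All shCxxc5 libraries were below all shCtrl libraries for 4 members (Slc7a1, Slc38a2, Slc1a4 and Slc6a9), against 6.35% of all genes, and above them for 0 members, against 6.72%.

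Most of the transporters were higher in replicate 2 than in replicates 3 and 4. With the group in the fit, 8 of 10 were called higher in replicate 2, against 17.7% of all genes, and 0 were called lower, against 18.7%. Slc6a9 (log2 difference 1.41, SE 0.14, adjusted p = 0.000909) and Slc7a5 (1.06, SE 0.08, adjusted p = 0.000335) were among them. The other 2 were Slc7a3 (1.63, SE 0.61, adjusted p = 0.0812) and Slc38a2 (-0.10, SE 0.07, adjusted p = 0.274).

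The size of the shCxxc5 effect also differed between pair 2 and the others. A term for that difference was called for 8 of 10 members, against 35.8% of all genes. In 6 of them, against 16.8% of all genes, the effect was more positive in pair 2, with a difference of 2.85 (SE 0.17) for Slc7a3, 1.69 (SE 0.14) for Slc7a11, 0.61 (SE 0.09) for Slc1a4, 0.60 (SE 0.15) for Slc6a9, 0.46 (SE 0.06) for Slc3a2 and 0.32 (SE 0.06) for Slc7a5 on the log2 scale. Slc7a1 went the other way at -0.48 (SE 0.08), and so did Slc38a2 at -0.20 (SE 0.07). The same term for Cxxc5 itself was -1.87 (SE 0.14), a deeper fall in pair 2. Whether the transporter differences relate to the depth of knockdown was not tested. Only replicates 3 and 4 contribute to the error here, with 2 residual degrees of freedom, and the single replicate 2 library of each group is taken to vary as they do. Over all genes, ratios in pair 2 were also spread more widely, with 5.63% of genes lower by at least 1 log2 unit there against 1.74% and 2.3% in pairs 3 and 4, and the members at or past that size numbered 1, 4 and 4.

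Markers of other blood cells moved with the libraries, and their part in the transporter values was not tested. The counts that follow are for replicates 3 and 4, where 9% of all genes were called lower and 11% higher. Of 9 tested megakaryocyte markers 5 fell and 0 rose, among them Itgb3 (log2 fold change -0.69, SE 0.04, adjusted p = 2.83e-14), Itga2b (-0.56, SE 0.06) and Pf4 (-0.68, SE 0.08). Their summed level was 1637, 309 and 300.4 CPM in shCxxc5 replicates 2, 3 and 4, against 6924, 487 and 485 CPM in shCtrl. Among the erythroid markers Klf1, Car2 and Gata1 fell and Tfrc rose, and the median of the tested ones was -0.48. The erythroid list summed to 1446, 617 and 585 CPM in shCxxc5, against 851, 530.5 and 549 CPM in shCtrl, and most of that was Tfrc, the transferrin receptor gene that many dividing cells express. Without Tfrc the sum was 614, 95.7 and 89.2 CPM in shCxxc5, against 486, 120.0 and 119 CPM in shCtrl, which is lower in shCxxc5 in pairs 3 and 4 and higher in pair 2. Most of what remained in replicates 3 and 4 was Car2, at 75.1 and 69.0 CPM in shCxxc5 and 90.3 and 88.6 CPM in shCtrl. In replicates 3 and 4 of both groups Hbb-bs lay between 2.78 and 4.44 CPM and Epor between 4.19 and 5.58 CPM, while Alas2 was at 0.269 CPM or less and Slc4a1 at 0. Hbb-bs and Epor were higher in replicate 2 of both groups. There Hbb-bs had 52.4 CPM in shCxxc5 and 19.9 CPM in shCtrl, and Epor had 22.03 CPM in shCxxc5 and 21.3 CPM in shCtrl. In replicate 2 Alas2 had 1.63 CPM in shCxxc5 and 0.211 CPM in shCtrl, and Slc4a1 had 0.869 CPM in shCxxc5 and 0 in shCtrl. Granulocyte and monocyte markers summed to 6125, 1556 and 1633 CPM in shCxxc5, against 1004, 1452 and 1453 CPM in shCtrl. Of these 10 markers 4 rose, among them Prtn3 (0.53, SE 0.03), Ms4a3 (0.27, SE 0.06) and Mpo (0.16, SE 0.03), and 2 fell. Mast cell and basophil markers summed to 1448, 373 and 357 CPM in shCxxc5, against 248, 353 and 364 CPM in shCtrl. Of these 6 markers Mcpt8 (0.61, SE 0.08), Prss34 (0.77, SE 0.10) and Ms4a2 (0.50, SE 0.11) rose and 2 fell. Of 8 LSK and stem cell markers 2 rose, among them Hlf (0.39, SE 0.08), and Ly6a (-0.16, SE 0.03) and Slamf1 (-0.29, SE 0.10) fell. Of the T cell markers Cd3e was at 0 in every library, and neither Cd79b nor Lck, the B and T cell markers that could be tested, was called between the groups in replicates 3 and 4 or over all 6 libraries. In bulk RNA, fewer cells of a type and less RNA per cell cannot be told apart.

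Levels were compared between genes only per kb of exon, which rests on the annotated exons rather than on the transcripts these cells make. Slc7a5 and Slc3a2 led, at 97.3 ± 44.5 and 94.5 ± 31.7 CPM per kb (SD, n = 6 libraries), followed by Slc1a5 at 71.4 ± 16.5. Ranges of these 3 overlapped. Slc38a2 came next at 35.6 ± 3.07, below every library of Slc1a5, and then Slc1a4 at 19.1 ± 9.49. The low end ran from Slc7a1, at 7.68 to 15.7, through Slc43a1 (5.87 to 7.77), Slc7a3 (0.848 to 8.23) and Slc6a9 (1.32 to 9.72) to Slc7a11 (0.488 to 4.37), and each overlapped its neighbours in that order. Slc7a3, Slc6a9 and Slc7a11 had the lowest means over 6 libraries and also the largest falls in replicates 3 and 4. Those means include the shCxxc5 libraries in which the genes fell. In shCtrl alone Slc7a3 was level with Slc43a1, at 6.72 per kb for both, with Slc6a9 at 6.22 and Slc7a11 at 3.36. Summed over the 10 genes, the level per kb was 395, 233 and 225 in shCxxc5 replicates 2, 3 and 4, against 525, 351 and 349 in shCtrl.

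**Figure D3:**
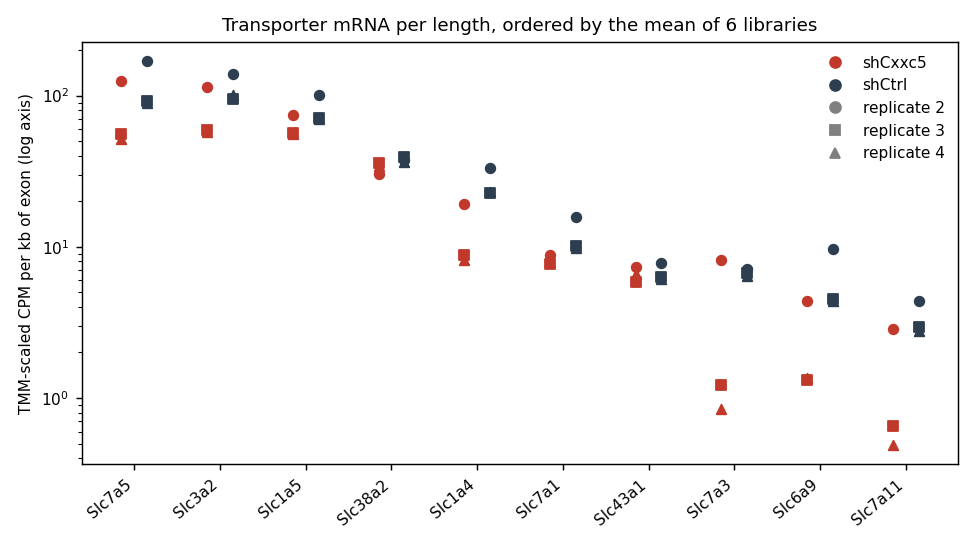
CPM per kb of exon (vertical log axis) in each library, with genes ordered by their mean over 6 libraries. The distance between the groups is widest for Slc7a3, Slc6a9 and Slc7a11 at the low end, in replicates 3 and 4, and Slc43a1 shows none.

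Of 34 other amino acid transporters of the plasma membrane, 14 were tested. In replicates 3 and 4, 2 of them fell and 1 rose, near the shares over all genes (9% lower and 11% higher), with a median log2 fold change of 0.01. Slc7a7, a light chain that exports cationic amino acids with Slc3a2, fell by 1.12 (SE 0.16, adjusted p = 6.53e-06). Slc7a2, which encodes the further cationic carrier CAT2, fell by 0.53 (SE 0.17, adjusted p = 0.0239). The taurine carrier gene Slc6a6 rose by 0.15 (SE 0.04, adjusted p = 0.00654). Over all 6 libraries Slc7a7 (-0.87), the carrier gene Slc6a13 (0.52) and the glutamine carrier gene Slc38a5 (2.20) had the smallest unadjusted p in the list, and none passed (adjusted p = 0.940 for each). Slc38a5 reached 14.1 CPM in shCxxc5 replicate 2 and was at 2.07 CPM or less in the other libraries.

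Carriers of the lysosome and the mitochondrion were counted against the same shares of all genes, 9% lower and 11% higher in replicates 3 and 4. Of 6 tested lysosomal transporters 1 fell in replicates 3 and 4, Slc15a3, whose protein exports histidine and peptides and which fell by 0.53 (SE 0.07, adjusted p = 4.23e-06), and 0 rose. Of 11 tested mitochondrial carriers 0 fell and 2 rose, the aspartate-glutamate carrier gene Slc25a13 by 0.17 (SE 0.05, adjusted p = 0.0164) and Slc25a44, whose protein carries branched-chain amino acids, by 0.22 (SE 0.07, adjusted p = 0.0207). Medians were -0.07 and 0.08 on the log2 scale.

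Genes of the amino acid starvation response, regulators and sensors among them, were also lower in part. Of 21 tested, 12 fell in replicates 3 and 4 and 0 rose, against 9% lower and 11% higher over all genes, with a median of -0.55. Asns, which makes asparagine, fell by 1.38 (SE 0.04, adjusted p = 5.22e-20), the pseudokinase gene Trib3 fell by 1.76 (SE 0.07, adjusted p = 3.08e-17) and Chac1, whose enzyme degrades glutathione, fell by 1.84 (SE 0.08, adjusted p = 3.42e-16). Atf4 itself fell by 0.64 (SE 0.03, adjusted p = 1.40e-14), with log2 ratios of 0.08, -0.65 and -0.65 in pairs 2, 3 and 4. Over all 6 libraries Ddit4 (-0.62), an inhibitor of mTORC1, Nupr1 (-1.46) and Trib3 (-1.43) had the smallest unadjusted p, and 0 of the 21 passed (adjusted p = 0.940 for these 3). The kinase genes Eif2ak4 (-0.10 in replicates 3 and 4, SE 0.05) and Eif2ak3 (0.03, SE 0.07) were not called in either fit. Neither were Mtor (0.06, SE 0.04), Rptor (0.06, SE 0.07), Castor1, Castor2, Nprl2, Nprl3 and Depdc5, which belong to the mTORC1 route or act on it. Sesn2, also of that route, fell by 0.87 in replicates 3 and 4 (SE 0.07, adjusted p = 8.66e-11).

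**Figure D4:**
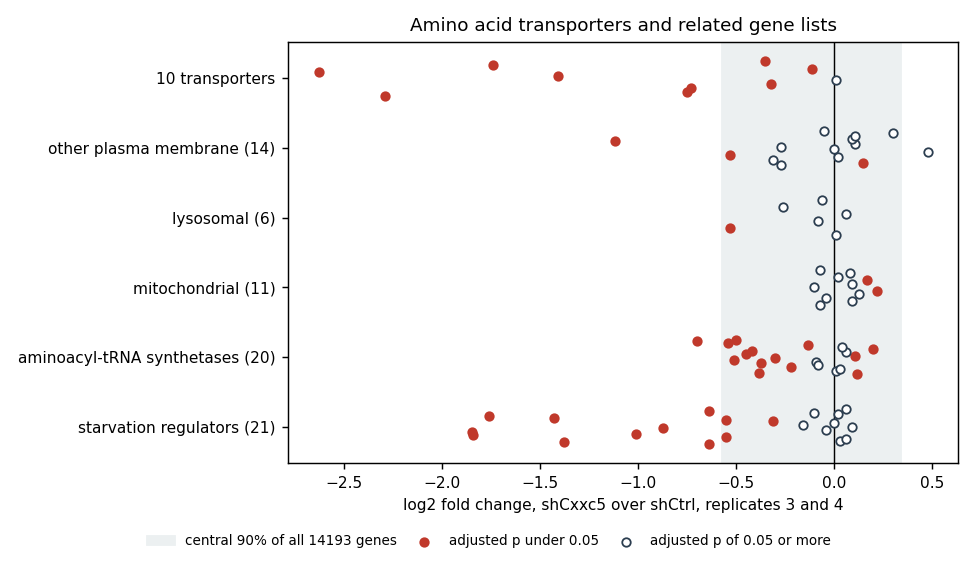
Log2 fold change of shCxxc5 over shCtrl in replicates 3 and 4 (horizontal axis) for each tested gene of 6 lists, with filled points at an adjusted p under 0.05 and grey shading for the central 90% of all 14193 genes. Among the 10 transporters 6 lie left of the shading, against 1 of the 14 other plasma membrane carriers. The lists were chosen with earlier results of these data known, so this contrast is descriptive.

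Genes with the most similar ratios over the 3 pairs were sought by Euclidean distance among 11111 genes, for the member with the largest change of each substrate. For Slc7a5 they were Eif4ebp1, which encodes a translation repressor (distance 0.0811), Dusp5 (0.0883) and Plk3 (0.111). Slc6a9 was nearest to Trib3 (0.111), Nupr1 (0.177) and Il1b (0.391). The nearest to Slc1a4 were Ddit3, the gene of the stress factor CHOP (0.222), Pkd2l1 (0.358) and Extl1 (0.402). For Slc7a11 the distances were larger, with Sorcs1 at 0.624, P2rx3 at 0.743 and Chac1 at 0.785. Slc7a3 had P2rx3 at 0.452, Cth at 0.737 and Slc7a11 itself at 0.949. These distances rest on 3 ratios per gene and describe likeness only.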

How the data were processed

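The authors' software was STAR 2.5.2b, featureCounts 1.5.1 and DESeq2, with the build GRCm38 (mm10), per the submitters' processing notes, which give no roles. The deposited table holds raw counts per Ensembl gene for 6 libraries. The kit was stranded, per the labels' protocols, but neither the strand setting of the counting nor its annotation release is stated. Symbols, exon lengths and overlaps came from GENCODE M21 (GRCm38), which matched 49412 of 49671 identifiers.

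The test was edgeR's robust quasi-likelihood test (edgeR 4.0.16, R 4.3.3) with group as its single term, TMM scaling and the filterByExpr filter, with Benjamini-Hochberg adjustment over all genes tested (14637 over all 6 libraries, 14193 in replicates 3 and 4). A standard error is |log2 fold change| over the root of F. Ratios within pairs use log2 CPM with a prior count of 2. Alternatives were DESeq2 1.42.0, limma-voom (limma 3.58.1), other scalings and filters, the replicate block and leaving out each library. Code was tested on simulated counts.

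Deviations from the group means correlated at 0.670, 0.554 and 0.489 between libraries numbered 2, 3 and 4, so the numbers were taken to pair the samples. Crossing numbers 3 and 4 gave 0.489 and 0.475, so only number 2 is set apart by this check. The members, lists and tests were chosen with earlier results of these data known. Named genes were the members, Cxxc5, the 3 of smallest unadjusted p per list and fit, and the 3 nearest genes per substrate; of the lysosomal, mitochondrial and marker genes so taken, those that passed no test are mostly given by count. Other genes, named for their marker, regulator or overlap role or to complete a count, were chosen after their values were seen. The result of 1 marker gene is not reported here. Counts carry no molecular identifiers.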

Additional observations from a re-analysis of the deposited data

How the results depend on the processing

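Over all 6 libraries, 0 genes and 0 transporters were called in every edgeR and limma-voom setting tried, with 575 genes at an unadjusted p under 0.05 in edgeR as reported. DESeq2 called 19 genes on the group alone; adding the replicate block it called 150, among them 5 transporters, and gave Cxxc5 log2 fold changes of -2.25 and -2.34 past the threshold. In replicates 3 and 4 edgeR called 2833 genes, 1555 higher and 1278 lower, and with library totals alone 1120 higher and 1606 lower. DESeq2 called 1356 there, and without 1 library edgeR called 1507 (without shCxxc5 replicate 3), 1539 (without shCtrl replicate 3), 1772 (without shCxxc5 replicate 4) and 2043. Transporters called numbered 8 or 9 in every setting tried on replicates 3 and 4, Slc38a2 being the one lost. The replicate block changed no other transporter call, with 9 called in replicates 3 and 4. A library left alone in its group was assumed to vary like the others. Slc43a1, never called, changed sign around 0: over all 6 libraries to 0.004 with no filter and between -0.10 and 0.10 without 1 library, and in replicates 3 and 4 to -0.001 by limma-voom, -0.010 with upper quartile scaling, -0.020 with library totals and between -0.075 and 0.104 without 1 library; the cause was not tested. With 2 libraries per group, differences as small as that of Slc38a2 were at the limit.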

Other observations

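The cytosolic aminoacyl-tRNA synthetases load the same amino acids onto tRNA. Of 20 tested in replicates 3 and 4, 11 fell and 3 rose in shCxxc5 cells, against 9% lower and 11% higher over all genes, with a median log2 fold change of -0.18. Cars, for cysteine, fell by 0.70 (SE 0.04, adjusted p = 1.42e-12 by edgeR), Sars, for serine, fell by 0.54 (SE 0.03) and Gars, for glycine, fell by 0.51 (SE 0.03). Rars, for arginine, rose by 0.20 (SE 0.04, adjusted p = 0.000509), and the arginine carriers Slc7a1 and Slc7a3 fell. Farsa, for phenylalanine, rose by 0.12 (SE 0.04) and Hars, for histidine, by 0.11 (SE 0.04, adjusted p = 0.0488). Over all 6 libraries Yars (-0.39), Mars (-0.26) and Sars (-0.46) had the smallest unadjusted p, and 0 of the 20 passed (adjusted p = 0.940 for these 3). Aars, Rars, Farsa and Hars were named after their values were seen; Aars, for alanine, fell by 0.50 (SE 0.04).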
